A study of Saccharomyces cerevisiae with 22 samples.

Results

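Head-to-head divergent promoter pairs are neighbouring genes of budding yeast (Saccharomyces cerevisiae) that are transcribed away from each other from nearby start sites. The pairs were chosen by position: a minus-strand cluster of transcription start sites, the next plus-strand cluster to its right on the same chromosome with no other cluster between, a gap (plus start minus minus end) of 0 to 400 bp, and exactly 1 gene assigned to each side. The rule gave 421 pairs, that is 842 sides from 831 genes, out of 5195 clusters and 595 head-to-head gaps of that size with any assignment, and 5 gene pairs occurred at 2 neighbouring gaps. No expression value entered the choice. In 360 pairs both sides lay upstream of the coding start of their gene, so that the name promoter pair fits the positions, whereas in 53 pairs at least 1 side lay inside a coding region and 16 pairs held a gene that the reference used here does not list.

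The clusters come from transcript leader sequencing (TL-seq), which reads the capped 5′ ends of RNAs and therefore counts each RNA once whatever its length. Levels of clusters of different genes can thus be set side by side, but 1 cluster need not hold all starts of its gene. The cultures were W303 yeast grown in YPD, either with 5 mM dithiothreitol (DTT) for 1 h or untreated, in 2 replicates of each group made on separate days. The mutants were swi3Δ;swi3-E815X::LEU2, snf2Δ;snf2-W935R::LEU2 and snf2Δ;snf2-Q928K::LEU2, in which a deleted subunit gene of the Swi/Snf chromatin remodeller was replaced by a mutant copy. The wild types were swi3Δ;SWI3::LEU2 and snf2Δ;SNF2::LEU2, deletion strains that carry the normal gene, so by genotype each strain lacks the native copy of the subunit gene it was given back. The authors' deposited tables hold 7 comparisons: DTT against untreated in wild type, and each of the 3 mutants against its wild type with DTT and untreated. Fold changes, their standard errors (SE) and adjusted p-values of single clusters are those of the authors' deposited tables. Levels per condition (mean normalized counts) were worked out here from the deposited mean and fold change, taking equal numbers of libraries in both conditions. The tables hold no values per library, so no SD over replicates can be given.

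DTT reduces disulfide bonds, which unfolds proteins in the endoplasmic reticulum (ER) and activates the unfolded protein response through the transcription factor Hac1. In yeast, close divergent genes usually share 1 stretch of nucleosome-depleted DNA between their start sites, with a separate preinitiation complex for each direction. Swi/Snf slides and evicts nucleosomes, and its ATPase subunit is Snf2.

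The gaps of 6 pairs are printed because the results below turn on them: MUD2/LHS1 (both sides rose with DTT), MHT1/MMP1 (both fell by a large factor), ICT1/MIM2 (opposite changes), GYP7/MFG1 (only the left side was called), PUS1/NIP7 (both fell, with letters common among ribosome biogenesis genes) and TIS11/RKM5 (opposite changes in a mutant). MUD2/LHS1, PUS1/NIP7 and TIS11/RKM5 were added after their values were seen. Each line gives the bases strictly between the clusters, 5′ to 3′ on the plus strand of RefSeq assembly R64, so that transcription of the first-named gene starts at the left end and runs left, and that of the second starts at the right end and runs right. Capitals mark chosen letters, on either strand: CAGCGTG (unfolded protein response element) in MUD2/LHS1, ACTGTGG (Met31/Met32) in MHT1/MMP1, TATAAA in ICT1/MIM2 and GYP7/MFG1, GATGAG (PAC) and AAAATTTT (part of RRPE) in PUS1/NIP7, and TGCACCC (Aft1) in TIS11/RKM5. Other letters searched for also occur and are left unmarked, among them TATAAA and GATGAG in MUD2/LHS1 and GATGAG in GYP7/MFG1. The reference strain is S288C, so W303 may differ from it at single bases.
MUD2/LHS1 (chrXI:296237-296368): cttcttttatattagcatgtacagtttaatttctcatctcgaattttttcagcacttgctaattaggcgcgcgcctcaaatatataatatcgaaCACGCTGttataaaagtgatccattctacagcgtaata
MHT1/MMP1 (chrXII:17628-17912): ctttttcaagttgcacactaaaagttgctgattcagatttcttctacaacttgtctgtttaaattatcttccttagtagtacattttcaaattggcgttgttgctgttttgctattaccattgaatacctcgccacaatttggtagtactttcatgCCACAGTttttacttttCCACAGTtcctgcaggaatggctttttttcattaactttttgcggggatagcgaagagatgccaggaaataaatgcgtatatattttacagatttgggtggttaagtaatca
ICT1/MIM2 (chrXII:341032-341266): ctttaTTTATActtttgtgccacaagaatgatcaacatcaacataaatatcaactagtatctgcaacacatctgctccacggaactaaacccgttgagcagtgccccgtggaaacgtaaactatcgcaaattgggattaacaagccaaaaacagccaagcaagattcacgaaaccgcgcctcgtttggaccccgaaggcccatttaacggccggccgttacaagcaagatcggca
GYP7/MFG1 (chrIV:36614-36770): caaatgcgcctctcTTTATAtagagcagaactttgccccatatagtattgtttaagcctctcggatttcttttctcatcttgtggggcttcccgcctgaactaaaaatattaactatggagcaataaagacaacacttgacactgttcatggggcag
PUS1/NIP7 (chrXVI:153199-153453): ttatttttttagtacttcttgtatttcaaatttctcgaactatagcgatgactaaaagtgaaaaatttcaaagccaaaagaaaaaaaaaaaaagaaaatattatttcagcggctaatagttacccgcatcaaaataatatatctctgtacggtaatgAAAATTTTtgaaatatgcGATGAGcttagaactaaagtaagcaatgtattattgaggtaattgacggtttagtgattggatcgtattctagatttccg
TIS11/RKM5 (chrXII:416716-416974): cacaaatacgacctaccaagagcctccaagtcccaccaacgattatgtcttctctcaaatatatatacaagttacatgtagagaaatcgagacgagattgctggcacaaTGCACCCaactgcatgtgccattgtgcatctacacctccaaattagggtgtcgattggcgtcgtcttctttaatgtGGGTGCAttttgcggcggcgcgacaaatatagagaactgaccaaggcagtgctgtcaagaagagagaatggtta

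The letters of the unfolded protein response element lay on the minus strand 95 bases from the MUD2 cluster and 32 bases from the LHS1 cluster. The Met31/Met32 letters occurred at 2 places in MHT1/MMP1, both on the minus strand, 157 and 174 bases from MHT1 and 123 and 106 bases from MMP1. In both TATA examples the letters lay on the minus strand next to the left cluster, 6 bases from ICT1 and 15 bases from GYP7, while 225 and 138 bases separated them from MIM2 and MFG1. A match describes the letters in the window and shows no binding.

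The gaps had a median of 173 bp, with quartiles of 129 and 243 bp, and ran from 8 bp at YAL037C-B/CDC19 to 400 bp at PGC1/HRR25. Their median G+C content was 35.5%, between 20.5 and 57.1%, against 38.3% for the genome. At the limit of the rule, PGC1/HRR25 had log2 fold changes with DTT of 1.02 ± 0.25 and 0.26 ± 0.40 (SE) in the authors' deposited table. TOK1/SRS2, just outside at 403 bp, had 1.25 ± 0.85 and -0.62 ± 0.27.

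Sides of divergent pairs were somewhat more strongly used than the clusters at large, with a median level in wild type of 222 with DTT and 214 untreated (mean normalized count), against 150 and 151 over all clusters, but the 2 sides of a pair were rarely matched. The level of the stronger side was a median of 3.9 times that of the weaker, 312 pairs differed by over 2-fold, 119 pairs (28.3%) by over 10-fold and 17 by over 100-fold. These are levels of single clusters, and in 372 of the 421 pairs both sides were the highest cluster of their gene. Beside SOD1, at 14035.8 untreated, an ADO1 cluster had 64.1 untreated, while another ADO1 cluster had 4091 untreated. Across pairs the Spearman correlation of the 2 levels was 0.079, given as a description of 421 points that share libraries. AIR1, an RNA-binding subunit of a nuclear surveillance complex, stood at 31 with DTT and 29.4 untreated, beside the threonyl-tRNA synthetase gene THS1 at 22499.5 with DTT and 25189 untreated. At the other end, RIM21, a pH sensor, had 366 with DTT and 149.9 untreated, and MSB3, a Rab GTPase-activating protein, had 367 with DTT and 154 untreated. Counts are relative within a library. They come from RNA of whole cultures, so fewer cells with a transcript and less of it per cell cannot be told apart.

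**Figure D1:**
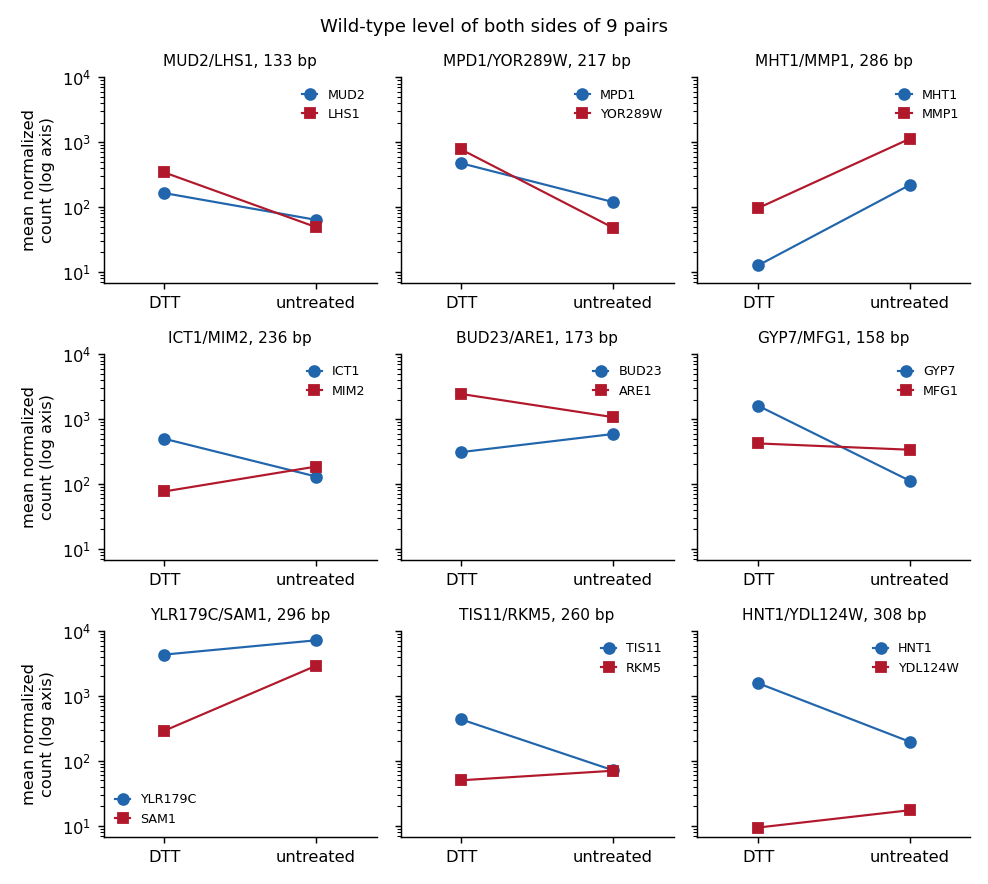
Mean normalized count (log axis) of both sides of 9 pairs in wild type with DTT and untreated, with the minus-strand side in blue circles, the plus-strand side in red squares and the gap in each panel title. Both sides are higher with DTT in MUD2/LHS1 and MPD1/YOR289W and lower in MHT1/MMP1 and YLR179C/SAM1, while the lines cross or diverge in ICT1/MIM2, BUD23/ARE1 and GYP7/MFG1.

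DTT changed 1 side of a divergent pair far more often than both. At an adjusted p under 0.05, 240 of the 842 sides were called (28.5%), against 33.8% of all clusters, with 146 sides higher (17.3%, against 16.5% of all clusters) and 94 lower (11.2%, against 17.3%). Both sides were higher in 18 pairs and lower in 9, the sides changed in opposite directions in 6, 1 side was called in 174 and neither in 214. Pairs changed the same way made up 6.41%, against 5.45% of the 2790 other neighbouring clusters of 2 genes. Pairs changed in opposite directions made up 1.43%, against 4.95% of those neighbours. One called side alone was as frequent as elsewhere, at 41.3% against 41.5%.

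The difference between the 2 sides (minus-strand side minus plus-strand side, log2) was tested directly from the 2 fold changes and their SE with a normal test, over all neighbouring clusters. It passed in 68 pairs (16.2%), against 22.8% of all neighbouring clusters, and with an error correlation of 0.3 between the sides it passed in 26.1% of pairs, against 30.3% of all neighbouring clusters when it is applied to all of them. In 19 of the 68 the stronger side with DTT was not the stronger side untreated. Where only 1 side was called, it was higher in 104 pairs and lower in 70, and the other side had the same sign in 111 of the 174. The median log2 fold change of the uncalled side was 0.25 beside a higher side and -0.25 beside a lower one.

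**Figure D2:**
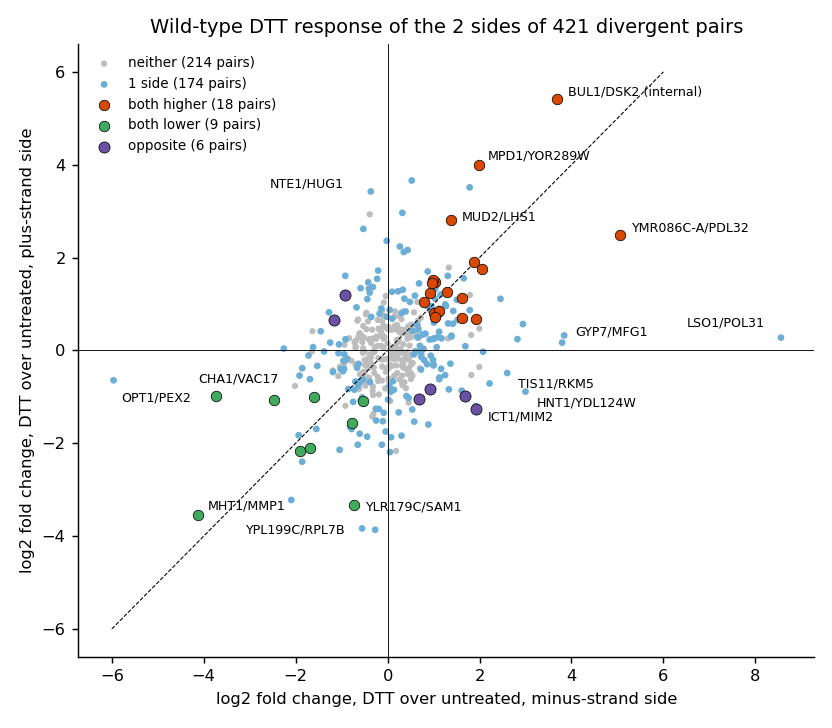
Log2 fold change (DTT over untreated, wild type) of the minus-strand side on the horizontal axis and of the plus-strand side on the vertical axis for 421 pairs, coloured by which sides were called, with the line of equal change dashed and "internal" marking the gap whose DSK2 cluster lies in the coding region. The 18 pairs with both sides higher and the 9 with both lower lie in 2 quadrants, the 6 opposite pairs in the others, and the 174 pairs with 1 called side spread along the axes.

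Pairs in which both sides rose included genes of ER protein folding. MUD2, a splicing factor, had 164 with DTT and 63.6 untreated, a log2 change of 1.37 ± 0.37 in the authors' deposited table (SE, adjusted p = 0.00118). LHS1, an ER Hsp70 that acts with the chaperone Kar2, had 342 with DTT and 49.1 untreated, or 2.80 ± 0.37 (adjusted p = 2.47e-12), and the 2 sides differed by -1.43 ± 0.53 (adjusted p = 0.0322). MPD1, a protein disulfide isomerase of the ER, had 473 with DTT and 119.8 untreated, a log2 fold change of 1.98 ± 0.31 (adjusted p = 4.12e-09). Its partner across 217 bp, the uncharacterized gene YOR289W, whose cluster was centred 19.5 bp inside the annotated coding region, had 772 with DTT and 48.2 untreated and rose by 4.0 ± 0.32 (adjusted p = 3.49e-34). YOR289W was the weaker side untreated and the stronger with DTT, and the sides differed by -2.02 ± 0.45 (adjusted p = 8.12e-05).

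Other pairs rose by nearly the same factor on both sides. RIM21/MSB3, 127 bp apart, had log2 fold changes of 1.29 ± 0.33 and 1.25 ± 0.38 in the authors' deposited table, and DLD1 (D-lactate dehydrogenase) and PAR32 had 1.88 ± 0.58 and 1.91 ± 0.36. SHE4, a myosin chaperone, rose by 2.06 ± 0.61 and PEP12, an endosomal t-SNARE, by 1.76 ± 0.23. RPN6, a proteasome lid subunit, had 2599.8 with DTT and 1378 untreated (0.92 ± 0.19) beside PMT1, an ER protein mannosyltransferase, with 3778 with DTT and 1599.5 untreated (1.24 ± 0.30). None of these 4 pairs passed the test of a difference between sides. The pair of this kind with the largest change on its less changed side, one of the 2 gaps of BUL1/DSK2, was not a pair of gene promoters: its DSK2 cluster, at 1641 with DTT and 38.5 untreated (5.41 ± 0.38, adjusted p = 1.33e-43), lay 448.5 bp inside the DSK2 coding region, and BUL1 had 41.9 with DTT and 3.25 untreated (3.69 ± 0.97).

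Both sides fell in 9 pairs. Over all sides, 2 of 7 with a gene of the sulfur amino acid list and 3 of 8 with one of amino acid synthesis fell and none rose, while 11.2% of all sides fell and 17.3% rose. MHT1 encodes an S-methylmethionine methyltransferase and MMP1 the permease that takes S-methylmethionine up. MHT1 had 12.6 with DTT and 219 untreated (-4.12 ± 0.63 as the log2 fold change, from the authors' deposited table, adjusted p = 1.38e-09), and MMP1 had 96.5 with DTT and 1131 untreated (-3.55 ± 0.27, adjusted p = 8.63e-38). The sides differed by -0.57 ± 0.69 (adjusted p = 0.634). SAM1, an S-adenosylmethionine synthetase, had 292 with DTT and 2928 untreated and fell by 3.33 ± 0.24 on the log2 scale. Its partner YLR179C, across 296 bp, had 4349 with DTT and 7223 untreated, a log2 fold change of -0.73 ± 0.25 (adjusted p = 0.015), so the sides differed by 2.60 ± 0.35 (adjusted p = 1.01e-11).

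CHA1, the catabolic serine and threonine deaminase, had 7.83 with DTT and 104 untreated (-3.73 ± 0.60), while VAC17, a vacuole inheritance adaptor, had 207 with DTT and 412 untreated (-0.99 ± 0.29), with both fold changes from the authors' deposited table. DED81 and YHR020W, the asparaginyl- and prolyl-tRNA synthetases, had 747 and 487 with DTT and 2281 and 978 untreated, log2 fold changes of -1.61 ± 0.23 and -1.0 ± 0.30 that did not pass the test of a difference (adjusted p = 0.267). PUS1, a tRNA pseudouridine synthase, had 498 with DTT and 855 untreated (-0.78 ± 0.23), and NIP7, a factor of large ribosomal subunit assembly, had 670.0 with DTT and 1989 untreated (-1.57 ± 0.29). Of the 9 pairs that fell together, 2 were gaps of YGL123C-A/RPS2, in which the RPS2 clusters lay inside the coding region.

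The 6 pairs with opposite changes each passed the test of the difference. This adds no separate support, because both sides had been called with opposite signs from the same fold changes and SE. ICT1, a lysophosphatidic acid acyltransferase, had 498 with DTT and 130.3 untreated (1.93 ± 0.34 as the log2 fold change, from the authors' deposited table, adjusted p = 2.63e-07). MIM2, a mitochondrial outer membrane import factor 236 bp away, had 76.8 with DTT and 186 untreated (-1.27 ± 0.39, adjusted p = 0.00505), so the stronger side changed place and the difference was 3.21 ± 0.52 (adjusted p = 2.63e-08). RIB1, the first enzyme of riboflavin synthesis, rose by 1.68 ± 0.27, while HEK2, an mRNA-binding protein, had 779.7 with DTT and 1549 untreated (-0.99 ± 0.39, adjusted p = 0.0382). ARE1, a sterol acyltransferase of the ER, had 2439 with DTT and 1073 untreated (1.18 ± 0.34), and BUD23, an 18S rRNA methyltransferase, had 310.1 with DTT and 589 untreated (-0.93 ± 0.36). AIP1, an actin filament disassembly factor, had a log2 fold change of 0.69 ± 0.19 beside -1.05 ± 0.32 for UTP15, a subunit of the small subunit processome. The remaining 2 were SKG6/PEX28, with -1.16 ± 0.40 and 0.64 ± 0.26, and TMC1/YOR053W, with 0.92 ± 0.31 and -0.83 ± 0.32.

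Where 1 side alone was called, changes of over 4-fold stood across the gap from a partner that did not pass the test. GYP7, a GTPase-activating protein of the vacuolar Rab Ypt7, had 1607 with DTT and 112 untreated (3.84 ± 0.26 as the log2 fold change, from the authors' deposited table, adjusted p = 4.64e-46). MFG1, a regulator of filamentous growth 158 bp away, had 422 with DTT and 337 untreated (0.32 ± 0.22, adjusted p = 0.265), and the sides differed by 3.52 ± 0.34 (adjusted p = 2.77e-22). SCS3, an ER protein of lipid metabolism, had 2160.5 with DTT and 277 untreated (2.96 ± 0.31), and the Mediator subunit SOH1, 67 bp away, had 511 with DTT and 409 untreated (0.32 ± 0.25). OPI3, a phospholipid methyltransferase, had 7099 with DTT and 1683 untreated (2.08 ± 0.26) beside a cluster inside the nuclear transport factor gene MOG1 with 360.4 with DTT and 368 untreated (-0.03 ± 0.25). RPL7B, a ribosomal protein gene, had 143 with DTT and 2086 untreated (-3.86 ± 0.29), while its partner YPL199C had 204 with DTT and 246 untreated (-0.27 ± 0.38).

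Both iron and copper genes among the sides also moved alone. TIS11, whose product promotes decay of mRNAs of iron-using proteins in iron deficiency, had 436 with DTT and 71.8 untreated (2.60 ± 0.58 as the log2 fold change, from the authors' deposited table, adjusted p = 5.24e-05), and the ribosomal protein methyltransferase RKM5 had 50.3 with DTT and 70.5 untreated (-0.49 ± 0.48). LSO1, a small gene known from iron starvation, had 724 with DTT and 1.92 untreated, a level under 3 counts (8.56 ± 1.51, adjusted p = 1.84e-07), beside POL31, a DNA polymerase delta subunit, with 48.6 with DTT and 40.1 untreated (0.28 ± 0.50). OPT1, an oligopeptide and glutathione transporter, had 1.72 with DTT, also under 3 counts, and 107 untreated (-5.96 ± 0.73), and the peroxisomal gene PEX2 had 355 with DTT and 555 untreated (-0.64 ± 0.33, adjusted p = 0.12). HNT1, an adenosine monophosphoramidase, had 1576 with DTT and 197 untreated (3.0 ± 0.31) beside YDL124W, a reductase, with 9.39 with DTT and 17.4 untreated (-0.89 ± 0.93). A textbook divergent pair, MRM1/HIS3, had no called side, with -0.69 ± 0.33 (adjusted p = 0.0968) and 0.07 ± 0.28.

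The wild-type table pools both wild-type strains, and their libraries did not stand at the same level for every gene. Worked out from the mutant tables, which are normalized separately, the level of LSO1 with DTT was 116 in the SWI3 strain and 1631 and 1799 in the SNF2 strain, and that of HEM1 untreated 1658 in the SWI3 strain and 4731 and 5451 in the SNF2 strain. Over all clusters the log2 ratios between the wild-type levels of the swi3-E815X and snf2-Q928K tables had a robust SD of 0.43 with DTT and 0.61 untreated, against 0.0012 and 0.00088 between the 2 snf2 tables, which share their wild-type libraries. Values from shared libraries hold no noise of replicates, whereas the spread between the strains does, so this contrast cannot measure a strain difference. The part of the strain in the results on wild type was not tested.

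The 2 wild-type responses to DTT were more alike in close head-to-head pairs than in other neighbours, and this varied with the gap. Among pairs with both sides at a mean of 50 or more, the Spearman correlation of the 2 log2 fold changes was 0.32 (n = 300) and Pearson's r was 0.33, against Spearman values of 0.044 for head-to-head neighbours over 400 bp apart (n = 342), 0.05 for neighbours on the same strand (n = 962) and -0.014 for tail-to-tail neighbours (n = 517). The 2 changes had the same sign in 57.7% of close pairs, against 50.9%, 52.4% and 48.4% of those neighbours in that order. In the 6 mutant comparisons, at the same limit on level, the Spearman correlation in close pairs ran only from -0.0066 to 0.108. It ran from -0.10 to 0.055 in those neighbours. These correlations run across pairs that share libraries and describe them without a test. Distance differed along with arrangement: before the limit on level, the median gap was 173 bp in close pairs. It was 1322, 2066 and 3230 bp in those neighbours, and the part of distance was not tested. The 2 changes lay within 2-fold of each other in 70% of close pairs, against 48.8%, 56.5% and 57.8% of those neighbours in that order. That share also rises where changes are small, so by itself it does not measure likeness. In snf2-W935R with DTT it was 78.1% of close pairs, against 69.0%, 69.2% and 71.2%, at a Spearman correlation of -0.0066. The part of the size of the changes was not tested. By gap, the correlation was 0.69 at 0 to 100 bp (n = 43), 0.36 at 100 to 150 bp (n = 72), 0.16 at 150 to 200 bp (n = 86), 0.44 at 200 to 300 bp (n = 46) and 0.080 at 300 to 400 bp (n = 53), with no steady order. The share of pairs whose sides differed was 5.88%, 10%, 12.7%, 28% and 24.7% in the same bins. In the closest pairs a short gap also means that some clusters lie inside a coding region, and its part in these values was not tested.

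**Figure D3:**
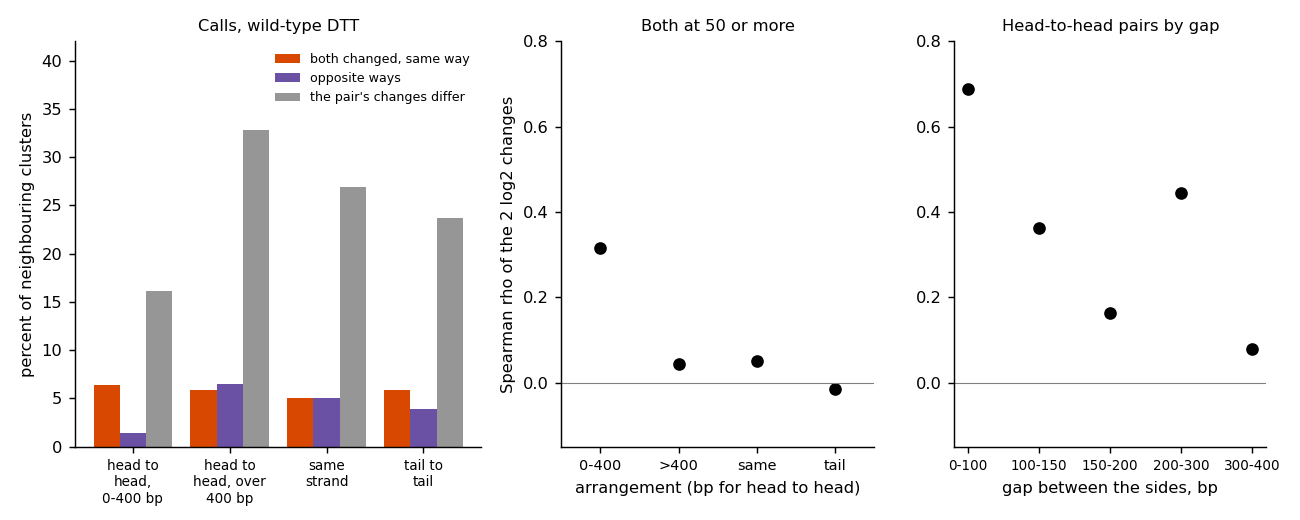
Wild-type DTT response by arrangement of neighbouring clusters: percent called the same way, called in opposite directions and with changes that differ (left), and Spearman correlation of the 2 log2 fold changes by arrangement (middle) and by gap in bp (right), for neighbours with both clusters at a mean of 50 or more. Of the 4 arrangements shown, head-to-head neighbours within 400 bp have the lowest percent with opposite changes, 1.43%, and a correlation of 0.32, and the correlation is 0.69 at gaps up to 100 bp. The other arrangements have longer gaps, with medians of 1322 to 3230 bp.

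Genes of ribosome production made up the largest group that fell on 1 side. Of 31 sides of ribosome biogenesis genes, which make rRNA and assemble ribosomal subunits, 18 fell and none rose, with a median log2 fold change of -0.97, against 0.067 over all sides. Their partners had a median of -0.13, with 4 higher and 5 lower, and 15 of the 18 called sides faced a partner that was not called, as did 70 of all 94 lower sides (74.5%). BRX1, a large subunit assembly factor, had 1004 with DTT and 3792 untreated (-1.92 ± 0.23 in the authors' deposited table, adjusted p = 2.31e-15), beside MDM20, an acetyltransferase subunit, with 169.8 with DTT and 247 untreated (-0.54 ± 0.37). NOP1, the fibrillarin of box C/D snoRNPs, had 947 with DTT and 2727 untreated (-1.53 ± 0.36), and TSC13, an ER enzyme of long-chain fatty acid synthesis, had 749 with DTT and 805 untreated (-0.10 ± 0.22). The difference between the sides of that pair was 1.42 ± 0.42 (adjusted p = 0.00516). NSA2/LCP5 and RRP3/SSF1 had a gene of the list on both sides.

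Ribosomal protein genes, on 14 sides of 12 genes, fell on 11 sides with none higher and a median of -1.67, while 4 of their partners fell and none rose. All 4 of these partners faced a cluster inside a coding region. They were YEL053W-A (RPL12A, 253.5 bp inside), YGL123C-A at both its gaps (RPS2, 250.5 and 554 bp) and YLR339C (RPP0, 561 bp). No partner fell at the other ribosomal protein sides. RPL22B had 566 with DTT and 2709 untreated (-2.26 ± 0.21 in the authors' deposited table) beside MIL1 with 173 with DTT and 169 untreated (0.04 ± 0.47). Mitochondrial ribosome genes, on 27 sides, had 1 side lower, MNP1 at -1.11 ± 0.25, and a median of -0.19.

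On sides with secretory pathway or proteasome genes the called changes of these lists were all higher, and 17.3% of all sides were higher. Of 16 sides with genes of translocation into the ER or of glycosylation, 8 rose and none fell, with a median of 0.89 and called changes of 0.94 to 1.33, and 4 partners rose. Vesicle coat and cargo receptor genes rose on 6 of 10 sides (median 0.90), with 3 partners higher and 1 lower, and proteasome genes on 6 of 14 (median 0.57), with 3 partners higher and 1 lower. ER-associated degradation genes rose on 3 of 7 sides, with DFM1 at 1.37 ± 0.25 in the authors' deposited table. SEC62, a translocon subunit, had 27568 with DTT and 11583 untreated (1.25 ± 0.27), and NOG1, a nucleolar GTPase of ribosome assembly 160 bp away, had 491 with DTT and 712 untreated (-0.53 ± 0.33, adjusted p = 0.204), and the difference of 1.79 ± 0.42 passed (adjusted p = 0.000307). RPL11A and the proteasome gene PRE2 likewise differed, by -1.77 ± 0.42 (adjusted p = 0.00033), with RPL11A at -1.13 ± 0.31 and PRE2 at 0.64 ± 0.29. These list counts describe the sides and were not tested against other genes.

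**Figure D4:**
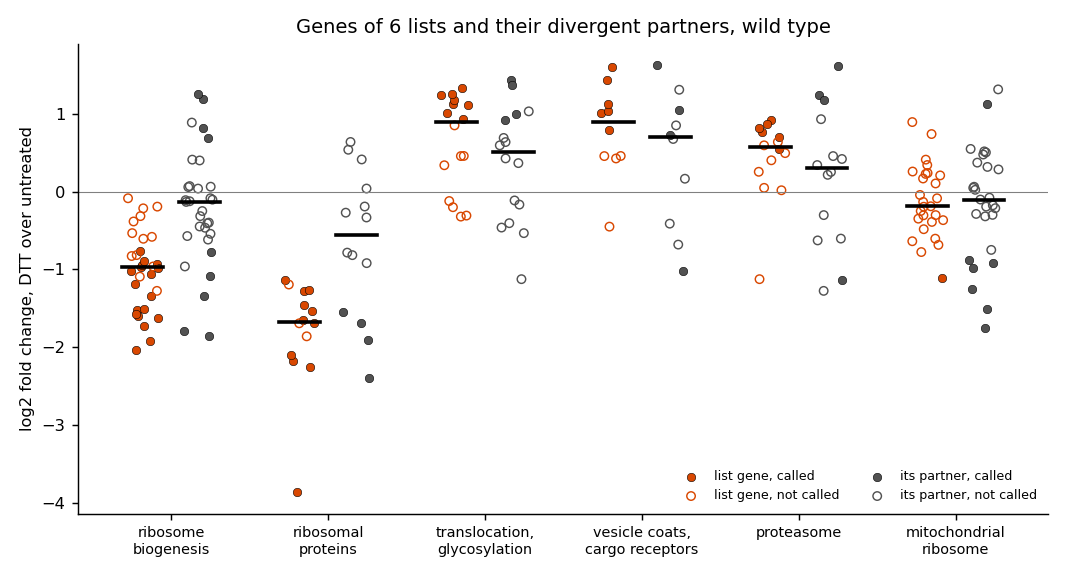
Log2 fold change (DTT over untreated, wild type) of each side with a gene of 6 lists (orange) and of its divergent partner (grey), filled where called and open where not, with bars at the medians. Ribosome biogenesis genes have a median of -0.97 and their partners one of -0.13, and translocation and glycosylation genes have a median of 0.89.

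Letters of known elements in the gap were searched and the calls set beside them. The median gap with and without the letters was 194.5 and 168 bp for GATGAG and 216 and 162.5 bp for TATAAA. It was 303.5 and 172 bp for CAGCGTG, and 168 and 174 bp for the Rpn4 letters GGTGGCA. The part of gap length in the shares of calls was not tested. The PAC letters GATGAG occurred on either strand in 84 gaps (20%) and the RRPE-like letters AAAATTTT in 62 (14.7%), with either in 110 (26.1%) and both in 36. In windows of 150 bases upstream of a cluster, which have 1 length, GATGAG stood before 17.0% of sides against 11.7% of all clusters, and AAAATTTT before 12.2% against 8.14%. All 31 sides with a ribosome biogenesis gene had either in the gap, as in PUS1/NIP7 above, which carries both 75 and 91 bases before the NIP7 cluster. Of the sides of gaps with GATGAG, 22% fell and 8.33% rose, against 8.46% and 19.6% of sides of gaps without it. TATAAA stood in 121 gaps (28.7%) and in 11 of the 18 gaps whose sides rose together. Of the sides of gaps with it 20.7% rose and 14.5% fell, against 16% and 9.83% of sides of gaps without it. It stood before 22.1% of sides against 25% of all clusters at a length of 150 bases.

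The unfolded protein response letters CAGCGTG were in 8 gaps, and before 1.19% of sides against 0.905% of all clusters in the windows of 150 bases. Of the 16 sides of those gaps 7 rose and none fell, while 16.8% and 11.4% did among sides of the other gaps. A further set of letters searched for this response, CACGTGT, was in 5 gaps, where 3 of 10 sides rose and 1 fell, with a median log2 fold change of -0.12. MUD2/LHS1 and HNT1/YDL124W are described above. SEC31, a COPII coat subunit, rose by 1.61 ± 0.55 in the authors' deposited table beside ASF2 at 1.31 ± 0.62 (adjusted p = 0.0923). SEC9, a plasma membrane t-SNARE, rose by 1.01 ± 0.26 beside NMA2, an enzyme of NAD synthesis, at 0.81 ± 0.49 (adjusted p = 0.193). CKS1, a cyclin-dependent kinase subunit, rose by 1.11 ± 0.44 beside HSL7, a methyltransferase of the morphogenesis checkpoint, at -0.44 ± 0.21. PSF2/ARG2, whose gap also held CAGCGTG, had no called side, with -0.25 ± 0.27 and 0.30 ± 0.67. The Rpn4 letters GGTGGCA were in 16 gaps, 8 proteasome sides among them, and 43.8% of the 32 sides rose, against 16.3% of sides of gaps without them. In the 150-base windows they stood before 3.33% of sides against 2.35% of all clusters. The Met31/Met32 letters were in 5 gaps, of which MHT1/MMP1 and YLR179C/SAM1 fell on both sides, and stood before 0.475% of sides against 1.10% of all clusters. The Aft1 letters were in 4 gaps, those of LSO1/POL31 and TIS11/RKM5 among them, and stood before 0.594% of sides against 0.828% of all clusters.

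In the mutants few divergent sides were called, and at such call rates most calls stand alone in any neighbours. In snf2-W935R 2 pairs (0.475%) changed the same way on both sides with DTT, and also 2 untreated. Those with DTT were TAD2/KAR2 and a gap of BUL1/DSK2, whose TAD2 and DSK2 clusters lay inside coding regions. Head-to-head neighbours over 400 bp, same-strand and tail-to-tail neighbours had 0.204%, 0.275% and 0.239% with DTT. Untreated they had 0%, 0% and 0.119%. In snf2-Q928K untreated the share was 0.713%, against 0.611%, 0.275% and 0.239%. In swi3-E815X no pair did so. In swi3-E815X cells 10 sides in 9 pairs were called with DTT (1.19%, against 1.39% of all clusters) and 3 sides in 3 pairs untreated (0.356%, against 1.81%). In snf2-W935R cells 25 sides in 23 pairs were called with DTT (2.97%, against 5.37%) and 14 sides in 12 pairs untreated (1.66%, against 2.74%). In snf2-Q928K cells 80 sides in 72 pairs were called with DTT, 39 higher and 41 lower (9.50%, against 14.5% of all clusters, with 7.34% higher and 7.18% lower), and 30 sides in 27 pairs untreated (3.56%, against 6.56%). The 2 sides differed in 2 pairs of swi3-E815X with DTT and 0 untreated (backgrounds of 1% and 0.815% of neighbouring clusters), in 9 and 4 of snf2-W935R (3.44% and 2.27%) and in 26 and 10 of snf2-Q928K (9.29% and 4.71%). In swi3-E815X untreated, 24 of 421 pairs had an unadjusted p under 0.05 in that normal test. With no difference at all, a share of 0.05 of tests would pass that threshold. The 2 snf2 tables share their wild-type libraries, so their values are given side by side and no overlap between them is counted. Both SWI3, itself the left side of a pair with the cell wall gene KRE9, and KRE9 were called in no table, and the point mutations leave the RNA of the mutated gene, so its level checks no label.

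TIS11 and RKM5 moved in opposite directions with DTT in swi3-E815X and snf2-Q928K cells. TIS11 had 119 in swi3-E815X cells and 354 in wild type with DTT (-1.57 ± 0.39 as the log2 fold change, from the authors' deposited table, adjusted p = 0.00718), 59.6 in snf2-W935R and 638 in wild type (-3.42 ± 0.48), and 79.8 in snf2-Q928K and 705 in wild type (-3.14 ± 0.38, adjusted p = 2.16e-14). RKM5 had 182 in swi3-E815X cells and 60.8 in wild type (1.58 ± 0.44, adjusted p = 0.0272), 147 in snf2-W935R and 49.3 in wild type (1.58 ± 0.73, adjusted p = 0.236), and 200.4 in snf2-Q928K and 54.6 in wild type (1.88 ± 0.53, adjusted p = 0.00457). The sides differed by -3.15 ± 0.59, -5.0 ± 0.88 and -5.02 ± 0.65 in those mutants. Untreated, TIS11 was lower in snf2-W935R, with 1.44, a level under 3 counts, and 116 in wild type, and in snf2-Q928K, with 14.6 and 133 in wild type. RKM5 untreated had 65.3 in snf2-W935R and 65.8 in wild type, and 78.7 in snf2-Q928K and 75.7 in wild type.

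CAR2, the ornithine transaminase of arginine catabolism, fell in 5 of the 6 mutant tables, the exception being swi3-E815X untreated. It had 364 in swi3-E815X and 1214 in wild type with DTT (-1.74 ± 0.40 in the authors' deposited table), 106 in snf2-W935R and 1331 in wild type (-3.65 ± 0.49) and 113 in snf2-Q928K and 1472 in wild type (-3.71 ± 0.38, adjusted p = 1.29e-20). Its partner DIF1, which governs nuclear import of ribonucleotide reductase, had 2815, 3767 and 4105 in those mutants and 3779.5, 4063 and 4493 in their wild types. Untreated, DIF1 fell by 1.12 ± 0.33 in snf2-W935R and by 1.18 ± 0.32 in snf2-Q928K, beside -3.02 ± 0.38 and -3.25 ± 0.35 for CAR2, and the sides differed by 1.90 ± 0.50 and 2.07 ± 0.47.

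Several genes that rose with DTT in wild type stood lower in mutants with DTT, while none of the partners given here was called. LSO1 had 27.7 in swi3-E815X and 116 in wild type (-2.07 ± 0.52 in the authors' deposited table), 8.01 in snf2-W935R and 1631 in wild type (-7.67 ± 1.39), and 3.67 in snf2-Q928K and 1799 in wild type (-8.94 ± 1.50), while POL31 had -0.17 ± 0.59, -0.44 ± 0.80 and -0.07 ± 0.65. HNT1 with DTT had 334 in snf2-Q928K and 2044 in wild type (-2.61 ± 0.30, adjusted p = 1.27e-16), and 1196 in snf2-W935R and 1847 in wild type (-0.63 ± 0.40, adjusted p = 0.471). MSC1, on the list of general stress genes, fell by 1.92 ± 0.41 in swi3-E815X, 1.92 ± 0.47 in snf2-W935R and 2.88 ± 0.41 in snf2-Q928K, beside -0.34 ± 0.28, 0.52 ± 0.41 and -0.05 ± 0.31 for RSC9, a subunit of the RSC remodeller. LHS1 fell by 1.08 ± 0.36 in snf2-Q928K with DTT (adjusted p = 0.0218) beside MUD2 at 0.79 ± 0.43, and GYP7 by 0.90 ± 0.25 beside MFG1 at 0.54 ± 0.31. In snf2-W935R with DTT GYP7 had -1.01 ± 0.33 (adjusted p = 0.0485) beside MFG1 at 0.57 ± 0.39. In swi3-E815X with DTT GYP7 had -0.30 ± 0.32 and was not called.

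CHA1 and MMP1, which fell with DTT in wild type, rose in some mutants with DTT, CHA1 in swi3-E815X and snf2-Q928K and MMP1 in snf2-Q928K. CHA1 had 86.5 in swi3-E815X and 5.69 in wild type (3.93 ± 0.68 in the authors' deposited table, adjusted p = 2.03e-06), 77.7 in snf2-W935R and 12.1 in wild type (2.68 ± 0.95, adjusted p = 0.0771), and 84.7 in snf2-Q928K and 13.4 in wild type (2.66 ± 0.86, adjusted p = 0.0185). VAC17 rose by 1.57 ± 0.32 in snf2-Q928K and had 0.40 ± 0.33 in swi3-E815X, where the sides differed (adjusted p = 0.000676). MMP1 with DTT had 169.9 in swi3-E815X and 93.4 in wild type (0.86 ± 0.40, adjusted p = 0.583), and 199 in snf2-W935R and 124 in wild type (0.69 ± 0.58, adjusted p = 0.637). It had 623 in snf2-Q928K and 136 in wild type with DTT (2.19 ± 0.40), and 2829 in snf2-Q928K and 1292 in wild type untreated (1.13 ± 0.28). MHT1 had 4.94 in snf2-Q928K and 26.9 in wild type with DTT, and 112 and 275 untreated in the same order, and the sides differed by -4.64 ± 1.52 and -2.43 ± 0.58 (adjusted p = 0.0294 and 0.00142).

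**Figure D5:**
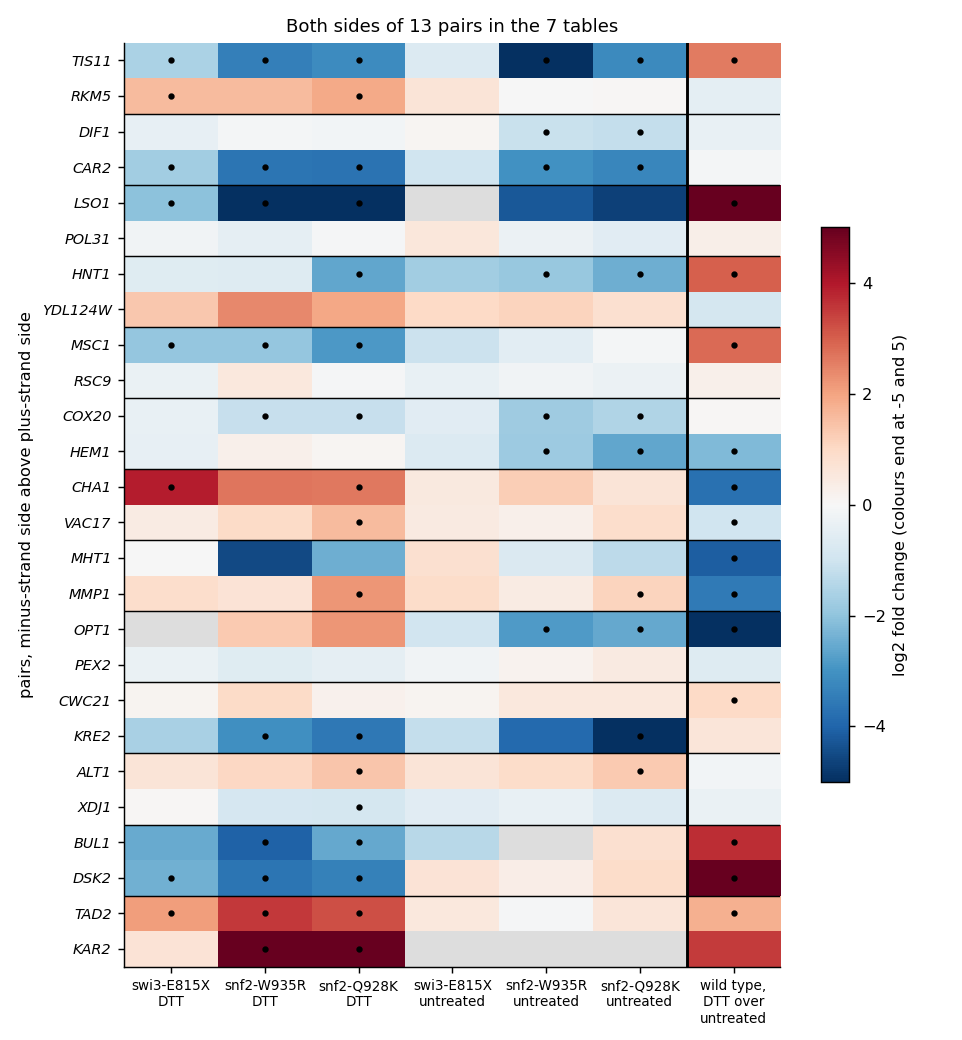
Log2 fold change of both sides of 13 pairs in the 6 mutant tables (mutant over wild type) and in the wild-type table (DTT over untreated), with the minus-strand side above the plus-strand side, a dot where the adjusted p was under 0.05 and grey where no value was given or both levels were at 3 counts or less. Dots stand mostly on 1 row of a pair, and TIS11 and RKM5 have opposite colours in the 3 mutants with DTT, with RKM5 not called in snf2-W935R. Most of these pairs were chosen because their sides differed in a mutant, so dots on 1 row follow in part from the choice.

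COX20/HEM1 was one of the few pairs with both sides lower. COX20 is a cytochrome oxidase assembly factor and HEM1 makes the first precursor of haem. Untreated, COX20 had 221 in snf2-W935R and 769 in wild type (-1.80 ± 0.48 in the authors' deposited table), and 311 in snf2-Q928K and 885 in wild type (-1.51 ± 0.46). HEM1 had 1353 in snf2-W935R and 4731 in wild type (-1.81 ± 0.48), and 907 in snf2-Q928K and 5451 in wild type (-2.59 ± 0.43). With DTT COX20 still fell, by 1.17 ± 0.38 and 1.15 ± 0.29, whereas HEM1 had 0.25 ± 0.40 and 0.10 ± 0.30. HTC1/RGL1 in snf2-Q928K untreated also fell on both sides, with log2 fold changes of -2.11 ± 0.61 and -3.61 ± 1.02.

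In snf2-Q928K with DTT both sides rose in 4 pairs and fell in 2, together 1.43% of pairs against 1.36% of other neighbouring clusters of 2 genes. They included TAD2/KAR2, which rose, and a gap of BUL1/DSK2, which fell, each with 1 cluster inside a coding region. In 2 pairs the sides moved in opposite directions (0.475%, against 0.86%), and in 64 pairs 1 side was called (15.2%, against 20.8%). ALG14, a subunit of an enzyme that starts N-glycan assembly, had 1102 in the mutant and 479.7 in wild type (1.2 ± 0.28 in the authors' deposited table), and YBR071W had 2571 in the mutant and 1459 in wild type (0.82 ± 0.25). The lipoyl synthase LIP5 and the metacaspase MCA1 rose by 1.4 ± 0.43 and 1.11 ± 0.31. ALT1, alanine transaminase, had 1426 in the mutant and 552 in wild type (1.37 ± 0.30), and the DnaJ-type chaperone XDJ1 had 519 in the mutant and 964 in wild type (-0.89 ± 0.29), with the sides differing by 2.26 ± 0.42 (adjusted p = 3.77e-06). LSP1, an eisosome component, and ULA1, a subunit of the Rub1-activating enzyme, fell by 1.28 ± 0.30 and 2.17 ± 0.80.

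Some of the largest mutant changes were at clusters away from the usual start of the gene. The DSK2 cluster inside the coding region had 306 in swi3-E815X and 1633 in wild type with DTT (-2.41 ± 0.42 in the authors' deposited table), 162 in snf2-W935R and 2039.6 in wild type (-3.65 ± 0.37), and 216 in snf2-Q928K and 2256 in wild type (-3.39 ± 0.32). Conversely, the TAD2 cluster, 466.5 bp inside the coding region of this tRNA deaminase gene, had 406 in swi3-E815X and 94.7 in wild type (2.10 ± 0.37), 2045 in snf2-W935R and 175 in wild type (3.54 ± 0.38), and 1818 in snf2-Q928K and 194 in wild type (3.23 ± 0.28). The facing cluster, 446 bp upstream of the coding start of the ER chaperone gene KAR2, had 108 in snf2-W935R and 1.93 in wild type (5.81 ± 1.14), and 91.8 in snf2-Q928K and 2.13 in wild type (5.43 ± 1.12), with wild type under 3 counts in both. A cluster 176.5 bp upstream of KRE2, a Golgi mannosyltransferase gene, had 11.4 in snf2-Q928K and 135 in wild type with DTT (-3.56 ± 0.70), and CWC21, a splicing factor gene 26 bp away, had 322 in the mutant and 277 in wild type (0.22 ± 0.42).

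Whether a mutant's effect on a side depended on DTT was tested as the effect with DTT minus the effect untreated, over all clusters. None of the sides passed in swi3-E815X, against 0.0386% of all clusters. There 20 of 842 sides had an unadjusted p under 0.05 in the normal test, a threshold that a share of 0.05 passes with no difference. Of 842 sides 4 passed in snf2-W935R (against 0.869% of all clusters) and 7 in snf2-Q928K (against 1.41%), and no tested partner passed. KAR2, the partner of TAD2 in snf2-W935R, had no value untreated and was not tested. HEM1 in snf2-Q928K was one of these, with a difference of 2.69 ± 0.53 (adjusted p = 0.000205), while its partner COX20 had 0.36 ± 0.55.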

How the data were processed

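TL-seq libraries were made with Cap-Clip treatment from 20 cultures of yeast, and 2 control libraries without it were not analysed here. Per the submitters' processing notes, cutadapt, HISAT2, DESeq2 and the R64 (sacCer3) genome were used, with no versions named. According to the deposited tables and per the file headers, start sites were joined into consensus clusters with a strand, and each of the 7 tables deposited by the authors gives per cluster a mean normalized count (a signal on the scale of size-factor-normalized counts), a log2 fold change with its SE, a Wald statistic (a score), a p-value and a Benjamini-Hochberg adjusted p-value. The deposited adjusted p-values were checked against a Benjamini-Hochberg adjustment and matched within 0.001.

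From these, pairs were found by position, and the level in each condition was worked out from mean and fold change, taking 4 libraries per arm in the wild-type comparison and 2 in the others. The difference of the 2 sides was divided by the root of the summed squared SEs, which takes the errors as independent, tested two-sided against the normal distribution and Benjamini-Hochberg adjusted over all neighbouring clusters. The mutant effect with DTT minus untreated was tested likewise over all clusters. The 2-sample groups limit the precision: the median SE of sides at a mean of 50 or more was 0.336 (log2) in the wild-type table and 0.349 to 0.465 in the mutant tables. Called means an adjusted p under 0.05. The pair finder and both difference tests were tested on simulated data (python 3.11.15, pandas 2.3.3, scipy 1.17.1).

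Genes were matched to the RefSeq R64 annotation for 826 of 842 sides. In each file 2 lines are empty, so a cluster between the sides of a pair could be missing. The rule for named pairs took, with both sides at 20 or more, up to 8 pairs of each kind with the largest change on the less changed side (for 1 changed side, the largest z of the difference), per mutant comparison 3 pairs with both sides changed and 4 whose sides differ most, the extremes of level and gap, textbook pairs and pairs with both genes on 1 list. MSC1/RSC9, SEC62/NOG1 and the list and letter examples that the rule does not give were chosen after their values were seen. The members and the gene lists were chosen with earlier results of these data known. Alternatives were a stricter threshold, a minimum level, other gap limits, 1 cluster per gene, unassigned clusters ignored between sides, correlated errors and, added after seeing the data, pairs with both sides upstream of the coding start.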

Additional observations from a re-analysis of the deposited data

Results flagged for a closer look

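A mutant's effect on a divergent side differed between DTT and untreated cultures in 11 cases by the test of that difference. No tested partner passed. The clusters in TAD2 and DSK2 count in both snf2 mutants, which share their wild-type libraries. Of 842 sides 4 passed in snf2-W935R and 7 in snf2-Q928K, against 0.869% and 1.41% of all clusters. KAR2, the partner of TAD2 in snf2-W935R, had no value untreated and was not tested, and the SE of the tested partners reached 5.0. Values are the log2 effect (mutant over wild type) with DTT minus the effect untreated, with its SE. In snf2-W935R the difference was 4.42 ± 1.19 for PEX10 (adjusted p = 0.0293), with effects of 1.83 with DTT and -2.59 untreated, and -2.27 ± 0.58 for IDP1 (adjusted p = 0.0221), with -1.06 and 1.21. For the clusters inside coding regions it was 3.62 ± 0.89 at TAD2 (adjusted p = 0.0199), with 3.54 and -0.07, and -3.97 ± 1.02 at DSK2 (adjusted p = 0.0225), with -3.65 and 0.32.

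In snf2-Q928K the difference was 2.69 ± 0.53 for HEM1 (adjusted p = 0.000205), with effects of 0.10 with DTT and -2.59 untreated, and 1.48 ± 0.40 for BRX1 (adjusted p = 0.0242), with 0.64 and -0.83. It was 2.86 ± 0.83 for GLT1 (adjusted p = 0.0453), -2.14 ± 0.57 for VVS1 (adjusted p = 0.0230) and -1.55 ± 0.41 for OPI3 (adjusted p = 0.0230). The clusters inside TAD2 and DSK2 had 2.61 ± 0.75 (adjusted p = 0.0427) and -4.32 ± 0.87 (adjusted p = 0.000292). At PEX10, IDP1 and BRX1 the effect passed the threshold in neither condition alone.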

How the results depend on the processing

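No paired analysis was possible because the deposited tables hold no values per library, and for the same reason leaving out replicates or libraries could not be run. The 19 shares of pairs gave 140 values under other settings, of which 99 lay both within the 95% binomial interval of the reported share and within 1.5 times of it. The other 41 follow. With unassigned clusters ignored (423 pairs) there were 0 such values.

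With 1 cluster per gene (372 pairs), pairs with a side whose mutant effect differed between conditions were 0.269% in snf2-W935R, against 0.95% as reported. With both sides upstream of the coding start (360 pairs, chosen after seeing the data), that share was 0.556%, and pairs with a changed side were 1.39% in swi3-E815X with DTT, against 2.14%. With both sides at 50 or more, the share whose mutant effect differed was 0% in snf2-W935R, and differing sides were 1.43% in snf2-W935R untreated, against 0.95%.

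At an adjusted p under 0.01, opposite changes were 0.475% of pairs, 1 changed side 29.7% and differing sides 12.6% in wild type. Pairs with a changed side were 0% in swi3-E815X untreated, 2.61% and 1.66% in snf2-W935R with DTT and untreated, and 9.50% in snf2-Q928K with DTT. Differing sides were 0.238% in snf2-W935R untreated and 2.61% and 1.43% in snf2-Q928K with DTT and untreated, and sides whose mutant effect differed were in 0% and 0.475% of pairs in snf2-W935R and snf2-Q928K.

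With gaps up to 200 bp (269 pairs), opposite changes were 0.743% and differing sides 10.4% in wild type. Pairs with a changed side were 0.372% in swi3-E815X with DTT, in swi3-E815X untreated and in snf2-W935R untreated, and 11.9% and 4.09% in snf2-Q928K with DTT and untreated. Differing sides were 0% in swi3-E815X with DTT and snf2-W935R untreated, 0.372% in snf2-W935R with DTT and 1.49% in snf2-Q928K untreated, and sides whose mutant effect differed were in 0.372% and 0.743% of pairs in snf2-W935R and snf2-Q928K. With gaps up to 600 bp (551 pairs), opposite changes were 2.18% and differing sides 20.5% in wild type, pairs with a changed side 1.45% and differing sides 0.181% in swi3-E815X untreated, and sides whose mutant effect differed were in 2.54% of pairs in snf2-Q928K.

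With errors correlated at 0.3 for all neighbours, differing sides were 26.1% in wild type, against 30.3% of all neighbouring clusters. They were 0.713% in swi3-E815X with DTT (1.91% of all neighbours), 5.70% and 1.43% in snf2-W935R with DTT and untreated (6.92% and 3.76%), and 9.50% and 4.04% in snf2-Q928K with DTT and untreated (13.7% and 7.33%). The cause of these shifts was not tested beyond what each setting does by construction.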
